A study of Mus musculus with 2 samples.

Results

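The genes examined were Dlx1, Dlx2, Dlx5, Dlx6, Sp8, Sp9, Gad1 and Gad2, 8 of the 23906 genes with counts in the brain table. They were taken by name, as the transcription factors and enzymes that mark inhibitory interneurons and their precursors, and all 8 had counts. They were followed through 5 stages of the adult brain lineage: quiescent neural stem cells (qNSCs), activated neural stem cells (aNSCs), cycling cells, and early and late neuroblasts (NBs), the migrating young neurons. Over the kept cells the 8 genes held 11218 (Dlx1), 5987 (Dlx2), 2925 (Dlx5), 3248 (Dlx6), 9199 (Sp8), 4954 (Sp9), 2042 (Gad1) and 4741 (Gad2) unique molecular identifiers (UMIs, each standing for 1 captured RNA molecule).

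The cells came from mice aged about 6 weeks that carried a Nestin-GFP transgene, in which green fluorescent protein follows the promoter of the intermediate filament gene Nestin, used by neural stem cells but also by vessel wall and other cells. GFP-positive (Nes-GFP+) cells of brain and lung were sorted by flow cytometry and each tissue was made into 1 droplet library read from the 3' end of transcripts, for a study asking whether tissues outside the brain hold neural stem cells. The labels give the strain as C57BL/6, whereas the methods say that the transgenic line was bred in house with wild-type mice of CD1 or CD1/C3H stock, and each library counts as 1 biological replicate, with the number of animals pooled for it not given in the sources used here. No mouse was treated, and the brain and the lung library shared the reporter and the age. With 1 library per tissue there are no replicates, so no test was made, and the 95% intervals given are exact and cover counting error only.

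The brain library held 4640 barcodes and 26221173 UMIs, of which 4151 cells with 19518081 UMIs were kept, with a median of 4209 UMIs and 2027 genes per cell. Clusters were built without the 8 genes and without the related genes described here, so a difference between stages in these genes was not used to draw them. Cells of a stage were named only for their resemblance to lists of markers. The qNSC-like cells (294 cells, median 3784 UMIs) held Gfap at 526 and Thbs4 at 310 counts-per-million of the class (CPM, the unit of every level given here). The 10 quiescent NSC markers summed to 12581 CPM in them and to 17566 CPM in cluster 1, which was led by astrocyte genes, and the 10 astrocyte markers to 8071 and 17446 CPM, so the name rests on the marker rule and does not set these cells apart from astrocytes. The aNSC-like cells (294 cells, median 7840.5 UMIs) held Egfr, the receptor of epidermal growth factor, at 200 CPM. This name follows the marker rule and does not mark a pure stem cell stage. The 10 leading genes of the cluster included the replication genes Mcm2, Mcm3, Mcm5, Rrm2 and Hells, of which Mcm2 and Rrm2 belong to its own marker list. That list summed to 1867 CPM here, against 3918 CPM in qNSC-like and 2249 CPM in cells resembling oligodendrocyte precursors (OPC-like), and 3098 CPM in cluster 1. The 12 cycling markers summed to 98.4 CPM in qNSC-like, 1027 CPM in aNSC-like and 10303 CPM in cycling cells. The NB markers summed to 7131 CPM in it, against 1518 CPM in qNSC-like, 8491 CPM in cycling and 15743 CPM in early NB-like cells. The cycling cells (315 cells in clusters 7 and 9, median 8409 UMIs) held Mki67 at 1329 CPM. Both NB-like classes held Dcx, at 911 CPM in the early class (229 cells, median 5331 UMIs) and at 1164 CPM in the late class (1141 cells, median 3959 UMIs). They were told apart by Meg3, a maternally expressed long RNA of neurons, at 481 CPM in the early and 3141 CPM in the late class. The 5 stages held 2273 cells together, and "early" and "late" name this order of Meg3, not a measured time. The brain and the lung table shared 15 barcodes, of which 11 were kept in both.

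Dlx proteins are homeodomain transcription factors of the ventral forebrain. Dlx1 and Dlx2 lie side by side in the genome, as do Dlx5 and Dlx6, and the first pair is known to act upstream of the second. Sp8 and Sp9 are zinc finger factors needed by many olfactory bulb interneurons, and Gad1 and Gad2 encode the decarboxylases GAD67 and GAD65 that make the inhibitory transmitter GABA from glutamate. In the adult mouse, stem cells of the ventricular-subventricular zone give rise to NBs that migrate to the olfactory bulb, where most become GABA-making interneurons.

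On the mouse build GRCm38 (GENCODE annotation), 5 of the 8 genes lie on chromosome 2. Gad2 spans chr2:22622205-22693874 and Gad1 chr2:70553072-70602014, both on the forward strand. Dlx1 (chr2:71528113-71533981, forward) and Dlx2 (chr2:71543408-71546754, reverse) end 9.43 kb apart, and Sp9 (chr2:73271925-73284706, forward) follows 1725 kb further on. Dlx6 (chr6:6863334-6868568, forward) and Dlx5 (chr6:6877805-6882085, reverse) are 9.24 kb apart, and Sp8 lies at chr12:118846329-118852576 on the forward strand. The whole of Dlx1 lies inside the antisense gene Dlx1as and the whole of Dlx6 inside the antisense gene Dlx6os1. Smaller parts of Gad1 (21.0%) and Sp9 (12.5%) overlap another gene. The strand setting of the counting is not given in the sources used here, so for these genes reads of the 2 strands cannot be told apart.

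The starts of 3 members whose upstream window was free, or all but 1 base free, of annotated exons are shown as examples of the start regions of the factor genes. Each line gives the 250 bases before the start of the gene (RefSeq, GRCm38.p6), read 5' to 3' on the strand of the gene. Capitals mark every match, on either strand, to the CCAAT box, to the E-box CACGTG, to the homeodomain cores named TAATTA and TAATTG, or to CAGCTG, an E-box of proneural factors.
Dlx2, chr2:71546755-71547004, reverse strand: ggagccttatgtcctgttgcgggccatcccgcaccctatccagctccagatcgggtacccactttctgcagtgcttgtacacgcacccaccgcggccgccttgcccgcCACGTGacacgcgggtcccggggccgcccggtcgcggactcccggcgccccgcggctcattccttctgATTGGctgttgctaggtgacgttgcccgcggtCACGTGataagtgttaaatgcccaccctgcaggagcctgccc
Sp8, chr12:118846079-118846328, forward strand: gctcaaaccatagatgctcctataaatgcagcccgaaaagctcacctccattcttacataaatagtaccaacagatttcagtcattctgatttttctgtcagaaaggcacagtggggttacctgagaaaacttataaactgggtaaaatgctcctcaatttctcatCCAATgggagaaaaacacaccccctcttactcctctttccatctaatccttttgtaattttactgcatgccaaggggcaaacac
Sp9, chr2:73271676-73271925, forward strand: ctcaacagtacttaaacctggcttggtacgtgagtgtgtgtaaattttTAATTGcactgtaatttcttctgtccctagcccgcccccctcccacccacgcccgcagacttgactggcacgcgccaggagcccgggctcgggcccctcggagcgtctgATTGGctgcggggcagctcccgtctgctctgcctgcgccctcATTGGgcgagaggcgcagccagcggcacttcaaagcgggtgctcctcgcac
Of the 8 genes, 6 were found in the promoter table, and Dlx5 and Dlx6 were not. The Dlx2 window held 1 CCAAT and 2 CACGTG matches with 66.4% G and C bases. The Sp9 window held 2 CCAAT matches and 1 match to TAATTG, a homeodomain core, with 62.4% G and C. The Sp8 window shown, the first of 3 annotated starts, held 1 CCAAT match and 40.8% G and C. Among 32851 promoter windows of the same length, 33.8% held the CCAAT box, 6.02% the first E-box, 4.84% and 7.17% the 2 homeodomain cores and 13.0% the proneural E-box. The CCAAT box and the first E-box were added to the search after the sequences had been seen. The GC box CCCGCCC was searched too but not capitalised, with 1 match in the Sp9 window and matches in 23.4% of all windows. A match describes letters, not a bound site.

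All 8 genes stood at their lowest stage level in qNSC-like cells and were higher by 2.79- to 12.5-fold in aNSC-like cells. Dlx1 was at 86.8 CPM in qNSC-like cells (95% interval 71.0 to 105), 973 in aNSC-like cells (933 to 1015), 878 in cycling cells (841 to 916), 1339 in early NB-like cells (1276 to 1405) and 1045 in late NB-like cells (1016 to 1075). Its neighbour Dlx2 followed with 48.0, 507, 557, 651 and 542 CPM. Both genes stood near their late NB-like level in aNSC-like cells, and below their early NB-like level, which was 1.38-fold (1.29 to 1.47) and 1.28-fold (1.17 to 1.41) higher. The 12 NB markers moved with this difference, as Dcx was at 63.7 CPM in qNSC-like and 420 CPM in aNSC-like cells, and the tubulin gene Tubb3 at 133 and 1242 CPM. The cycling markers moved with it too, as Top2a was at 14.1 and 360 CPM. The part of either in the levels of the 8 genes in aNSC-like cells was not tested.

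Dlx5 was at 15.7 CPM in qNSC-like cells, 197 in aNSC-like cells, 308 in cycling cells, 356 in early NB-like cells and 263 in late NB-like cells. Dlx6 was at 14.1, 163, 221, 348 and 363 CPM in the same order. The pair differed at the end of the sequence, where Dlx5 was lower in late than in early NB-like cells and Dlx6 was not.

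Sp8 was at 79.4 CPM in qNSC-like cells (64.3 to 97.0), 296 in aNSC-like cells (274 to 319), 706 in cycling cells (673 to 740), 801 in early NB-like cells (752 to 853) and 1193 in late NB-like cells (1162 to 1225). Sp9 was at 26.5, 318, 396, 583 and 524 CPM. Sp8 was thus highest in the late class and Sp9 in the early class.

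Gad1 was at 20.7 CPM in qNSC-like cells (13.4 to 30.5), 57.7 in aNSC-like cells (48.3 to 68.5), 109.9 in cycling cells (97.1 to 124), 212 in early NB-like cells (187 to 239) and 259 in late NB-like cells (244 to 274). Gad2 was at 23.2, 239, 298, 489 and 578 CPM. For both enzymes the intervals of neighbouring stages did not overlap from qNSC-like to late NB-like cells.

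**Figure D1:**
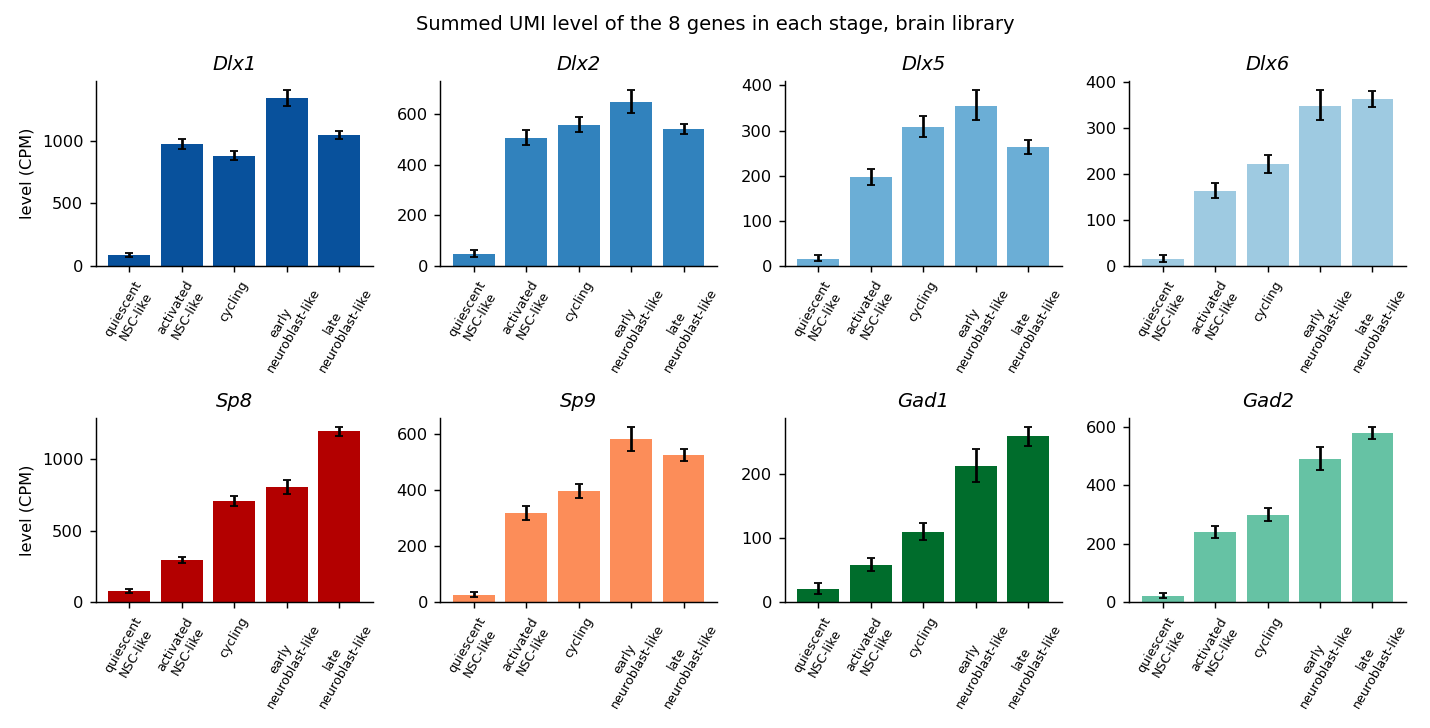
Level of each of the 8 genes (CPM, linear axes from 0, 1 panel per gene) in the 5 stages of the brain library, with bars for the summed counts and error bars for the exact 95% Poisson interval, which covers counting error only. Each gene is lowest in qNSC-like cells, Dlx1, Dlx2, Dlx5 and Sp9 are highest in early NB-like cells, and Dlx6, Sp8, Gad1 and Gad2 are highest in late NB-like cells.

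The genes came close to their late NB-like level at different stages. In aNSC-like cells Dlx2 stood at 93.6%, Dlx1 at 93.1% and Dlx5 at 74.6% of the late NB-like level of the same gene. Sp9 stood at 60.7%, Dlx6 at 44.9% and Gad2 at 41.3%, and Sp8 and Gad1 at only 24.8% and 22.3%. The counting intervals of Dlx1 and Dlx2 overlapped in this order, as did those of Sp8 and Gad1. In cycling cells the shares were 84.0% for Dlx1, 103% for Dlx2, 117% for Dlx5, 75.5% for Sp9, 60.8% for Dlx6, 59.2% for Sp8, 51.6% for Gad2 and 42.5% for Gad1. Dlx1 and Dlx2 stood first, Dlx5 next, and Sp8 and Gad1 last in aNSC-like cells under every alternative way of filtering and clustering. The sizes were less stable, since over the alternatives the ratio of the aNSC-like to the late NB-like level ran from 0.646 to 1.04 for Dlx1, from 0.690 to 1.03 for Dlx2 and from 0.0814 to 0.404 for Gad1.

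From qNSC-like to aNSC-like cells all 8 genes were at least 2-fold higher with at least 20 UMIs over both classes, which is the call used here, against 19.2% of the 10790 genes tested, while 21.4% were at least 2-fold lower. The ratio was 11.2 for Dlx1 (9.21 to 13.8), 10.6 for Dlx2, 12.5 for Dlx5, 11.6 for Dlx6, 12.02 for Sp9 and 10.3 for Gad2. It was smaller for Sp8, at 3.72 (3.00 to 4.66), and for Gad1, at 2.79 (1.81 to 4.47). The median ratio of all genes tested was 1.08. Without the qNSC-like cells holding 10 or more UMIs of the 8 genes, a trimming chosen after seeing the data that raises the ratio by construction, it was 77.6 for Dlx1, 13.7 for Sp8 and 7.16 for Gad1. Over all alternatives the ratio stayed at 8.19 or more for the other 6 genes and 2.75 or more for Sp8, while that of Gad1 was 1.99, short of the call, with no upper limit on genes per cell.

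From aNSC-like to cycling cells 1 of the 8 genes, Sp8, was called higher, at a ratio of 2.39 (2.18 to 2.61), where 5.75% of genes were called higher and 6.38% lower. Gad1 followed at 1.90 (1.54 to 2.37) and Dlx5 at 1.57. Dlx1, at 0.90, was the only member that was lower in cycling cells. From cycling to early NB-like cells no member was called (5.09% of genes were called higher and 10.2% lower), and ratios lay between 1.14 for Sp8 (1.15 for Dlx5 and 1.17 for Dlx2) and 1.93 for Gad1 (1.62 to 2.30). Sp8 thus had the largest ratio of the 8 genes into the cycling class and Gad1 the largest out of it. The intervals of Sp8 and Gad1 overlapped in the first order. In the second, that of Gad1 overlapped those of Gad2 (1.47 to 1.83), Dlx6 (1.39 to 1.79), Dlx1 and Sp9.

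Between early NB-like and qNSC-like cells all 8 genes were called higher, against 17.2% of 9980 genes tested, and they ranked between 13th (Dlx6) and 94th (Sp8) by ratio. The ratio was 24.8 for Dlx6, 22.6 for Dlx5, 22.0 for Sp9, 21.1 for Gad2, 15.4 for Dlx1, 13.6 for Dlx2, 10.3 for Gad1 and 10.1 for Sp8. These sizes depended on a few qNSC-like cells. Of the 294 cells, 236 had no UMI of any of the 8 genes, and 14 cells with 10 or more such UMIs held 79.7% of the 380 UMIs. The ratio of the summed Dlx genes was 16.4 (14.2 to 19.0) with all cells, 82.6 after cells called as doublets by Scrublet had been removed from the library, and 120.2 without those 14 cells. Leaving out the 14 cells was chosen after seeing the data and raises the ratio by construction. The same alternatives gave 13.1, 48.2 and 48.3 for the summed Sp genes and 16.0, 33.5 and 39.1 for the summed Gad genes. The direction was the same in each.

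The 25 qNSC-like cells that also held a UMI of Dcx, the microtubule protein that marks NBs, had the 8 genes at 1973 CPM in sum and a mean depth of 5961 UMIs. The 269 cells with no Dcx UMI had them at 81.1 CPM (64.9 to 100) and a mean depth of 3941 UMIs, with Dlx1 at 15.1, Sp8 at 27.4 and Gad2 at 9.43 CPM. Endothelial-like cells of the same library, which should lack these genes, had them at 159 CPM over all 329 cells, and 7 cells held 71.1% of those UMIs. Over all cells the sum was 270 CPM in mural-like cells of the vessel wall (224 to 322) and 283 in microglia-like cells (208 to 376). It was 23.9 in ependymal-like and 20.5 in fibroblast-like cells, against 314 in qNSC-like cells (283 to 348). Only endothelial-like cells were compared after trimming. Trimmed like the qNSC-like cells, the 312 endothelial-like cells with no Dcx UMI had the 8 genes at 35.1 CPM (25.2 to 47.6), so qNSC-like cells without Dcx stood 2.31-fold higher than these (1.57 to 3.44). Most of that difference lay in Sp8, with 29 UMIs against 3, a ratio of 10.6 (3.30 to 54.6). The ratio was 3.52 for Dlx1 (1.23 to 12.3) and 3.85 for Dlx2 (1.21 to 16.1), and the intervals of the other 5 genes included 1. This trimming was chosen after seeing the data. When cells with 10 or more UMIs of the 8 genes were left out of both classes instead, the ratio was 1.45 for the sum (1.02 to 2.07), 6.54 for Sp8 (2.25 to 25.95) and 1.45 for Dlx2 (0.443 to 5.09). The part of free RNA or of mixed droplets in these values was not tested.

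Within the aNSC-like class, Dlx1 and Dlx2 were 2.39- and 1.83-fold higher in cells with a Dcx UMI than in cells without one, and each of the other 6 genes 6.02-fold or more. The 83 cells with no Dcx UMI and the 211 cells with one were of like depth (means of 7855 and 7667 UMIs per cell). Dlx1 was at 489 CPM without Dcx (437 to 546) and 1168 with it, and Dlx2 at 319 and 583 CPM, ratios of 2.39 (2.12 to 2.697) and 1.83 (1.57 to 2.13). Sp8 was at 49.1 and 395 CPM and Sp9 at 55.2 and 424 CPM, ratios of 8.05 (5.64 to 11.9) and 7.68. Dlx5 was at 36.8 and 261 CPM and Dlx6 at 16.9 and 222 CPM, ratios of 7.09 (4.70 to 11.2) and 13.2 (7.26 to 26.6). Gad2 was at 52.2 and 314 CPM, a ratio of 6.02. Gad1 had 1 UMI in the cells with no Dcx UMI (1.53 CPM) and stood at 80.4 CPM in the others, a ratio of 52.4 with a counting interval from 9.24 upward. The intervals of the ratios of Dlx1 and Dlx2 lay below those of the other 6 genes. Endothelial-like cells with no Dcx UMI held Dlx1 at 4.28, Dlx2 at 3.43, Dlx5 at 3.43, Dlx6 at 2.57, Sp8 at 2.57, Sp9 at 3.43, Gad1 at 6.85 and Gad2 at 8.57 CPM. This split was chosen after values had been seen.

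The same split of the cycling cells gave a weaker contrast of the same kind. The 45 cells with no Dcx UMI were shallower than the 270 with one (means of 5640 and 8091 UMIs per cell). Dlx1 was at 465 and 926 CPM, a ratio of 1.99 (1.65 to 2.42), and Dlx2 at 382 and 578 CPM, a ratio of 1.51 (1.23 to 1.88). The ratio was 3.86 for Dlx5, 2.49 for Dlx6 (1.66 to 3.93), 7.88 for Sp8 (5.32 to 12.2), 3.75 for Sp9, 2.71 for Gad1 (1.49 to 5.51) and 3.56 for Gad2. The ratio of Sp8 was the largest, but its interval overlapped those of Dlx5, Sp9, Gad1 and Gad2, and the intervals of Dlx6, Gad1 and Gad2 overlapped that of Dlx1.

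**Figure D2:**
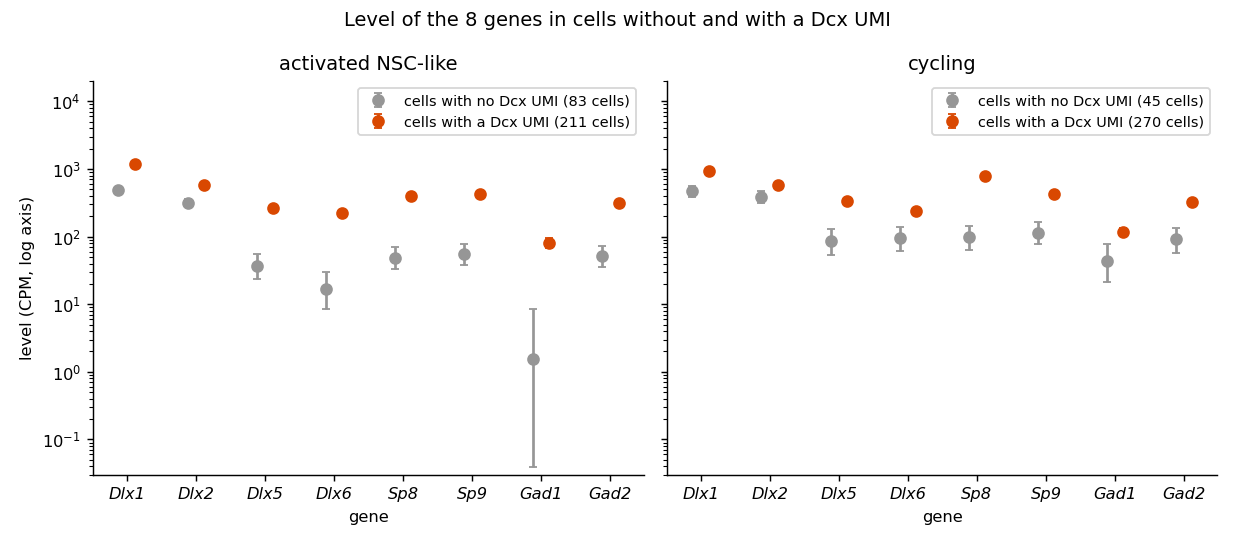
Level of the 8 genes (CPM, log axis) in aNSC-like cells (left) and cycling cells (right), grey for cells with no UMI of Dcx and orange for cells with at least 1, with exact 95% Poisson intervals. In aNSC-like cells the grey and orange points lie closest for Dlx2 (319 and 583 CPM) and farthest apart for Gad1 (1.53 and 80.4 CPM).

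The 2 cycling clusters also differed in the Sp genes. Sp8 was at 842 CPM in cluster 7 (171 cells) and 496 CPM in cluster 9 (144 cells), a ratio of 1.70 (1.53 to 1.89). Sp9 was at 453 and 308 CPM, a ratio of 1.47 (1.28 to 1.69). The Dlx1, Dlx6 and Gad2 ratios were 1.14, 1.31 (1.09 to 1.58) and 1.19, and those of Dlx2 (0.90), Dlx5 (0.998) and Gad1 (1.14) had intervals that included 1.

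Between early and late NB-like cells the 8 genes together differed by less than the counting error, but their composition differed. The summed level was 4780 CPM in the early and 4767 CPM in the late class, a ratio of 0.997 (0.969 to 1.03). The summed Dlx genes were lower in late cells, with a ratio of 0.822 (0.790 to 0.855), and the summed Sp and Gad genes were higher, with ratios of 1.24 (1.18 to 1.31) and 1.19 (1.11 to 1.29). By gene, the ratio was 0.741 for Dlx5, 0.780 for Dlx1, 0.832 for Dlx2, 0.899 for Sp9 (0.827 to 0.978), 1.04 for Dlx6 (0.938 to 1.16), 1.18 for Gad2 (1.08 to 1.29), 1.22 for Gad1 (1.07 to 1.40) and 1.49 for Sp8 (1.39 to 1.59). None of these passed the 2-fold call, which 5.95% of genes passed upward and 3.75% downward. These are differences within 1 library, larger than the counting error except for Dlx6. All except Dlx6, which crossed 1, kept their direction under every alternative, although the Gad1 ratio ranged from 1.01 to 1.70 and the Gad2 ratio from 1.06 to 1.31.

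Grouping the NB-like cells by Meg3 instead of by cluster gave ratios on the same side of 1 for every member except Dlx6, with smaller or less certain differences for Sp8, Sp9 and Gad1. Over 5 bins of 356, 182, 264, 231 and 337 cells with rising Meg3, Dlx1 was at 1240, 1255, 1086, 986 and 940 CPM. Sp8 was at 988, 1034, 1118, 1262 and 1206 CPM. The ratio of the highest to the lowest bin was 0.76 for Dlx1 (0.71 to 0.82) and Dlx2, 0.71 for Dlx5, 0.96 for Dlx6 (0.85 to 1.09), 0.95 for Sp9 (0.86 to 1.05), 1.16 for Gad1 (0.99 to 1.35), and 1.22 for both Sp8 (1.14 to 1.31) and Gad2 (1.10 to 1.35). The median depth of the bins fell from 4764 to 3534 UMIs per cell. Because Meg3 also set the class names, these bins are a second view of the same cells and not a replicate.

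The share that 1 gene took of its pair differed between stages. Shares are compared here between stages only, since counts from the 3' end do not rank different genes. In qNSC-like cells Gad1 made up 47.2% of the Gad UMIs (33.3 to 61.4%, 25 of 53 UMIs), Sp8 75.0% of the Sp8 and Sp9 UMIs (66.6 to 82.2%, 96 of 128 UMIs) and Dlx6 47.2% of the Dlx5 and Dlx6 UMIs (17 of 36 UMIs). These shares rest on few UMIs, since 14 qNSC-like cells held 79.7% of the UMIs of the 8 genes. In endothelial-like cells, the background, the same shares were 45.9% (29.5 to 63.1%), 64.3% (51.9 to 75.4%) and 53.8% (33.4 to 73.4%). The intervals of both classes thus overlapped for each pair. Gad1 made up 19.5% of the Gad UMIs in aNSC-like cells (16.5 to 22.7%), 26.9% in cycling cells, 30.2% in early and 30.9% in late NB-like cells (29.5 to 32.4%). Sp8 made up 48.2% of the Sp8 and Sp9 UMIs in aNSC-like cells (45.5 to 50.8%), 64.1% in cycling cells, 57.9% in early NB-like cells (55.5 to 60.2%) and 69.5% in late NB-like cells (68.5 to 70.5%). Dlx6 made up 45.3% of the Dlx5 and Dlx6 UMIs in aNSC-like cells, 41.8% in cycling cells (39.0 to 44.5%), 49.5% in early and 58.0% in late NB-like cells (56.2 to 59.8%). The share of Dlx1 in the Dlx1 and Dlx2 UMIs stayed between 61.2% and 67.3% in all 5 stages.

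**Figure D3:**
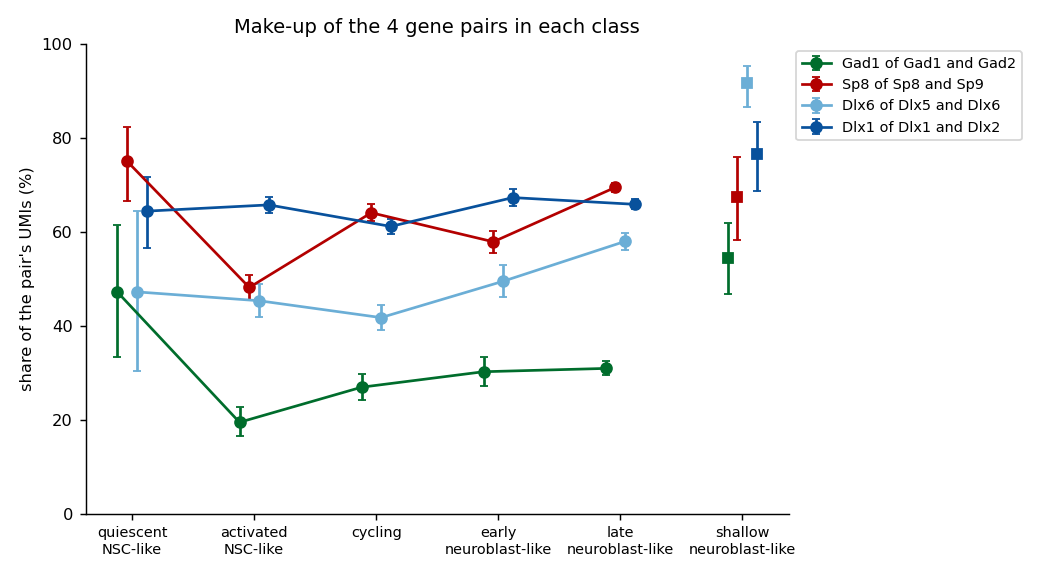
Share of a pair's UMIs held by its first-named gene (percent of the pair's UMIs) in the 5 stages, joined by lines, and in the shallow NB-like cluster, drawn apart, with exact binomial 95% intervals. The share of Gad1 is 47.2% in qNSC-like cells with a wide interval, 19.5% in aNSC-like and 30.9% in late NB-like cells, and that of Dlx6 reaches 58.0% in late and 91.7% in shallow NB-like cells. In endothelial-like cells, which are not drawn, the share of Gad1 is 45.9%.

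Depth differed between stages, so detection was compared at equal depth, with 1000 UMIs drawn from each cell and shallower cells left out (292 qNSC-like, 294 aNSC-like, 306 cycling, 229 early and 1141 late NB-like cells remained). Dlx1 was then found in 4.8% of qNSC-like, 55.4% of aNSC-like, 52.3% of cycling, 66.8% of early and 61.1% of late NB-like cells, and Sp8 in 3.1%, 19.4%, 39.5%, 47.2% and 64.0%. Gad1 was found in 1.7%, 7.8%, 10.1%, 18.3% and 22.7%, and Gad2 in 1.4%, 21.1%, 27.8%, 33.6% and 42.1%. The shares of Dlx2, Dlx5, Dlx6 and Sp9 peaked in early NB-like cells, at 51.1%, 32.3%, 33.6% and 48.9%. With 2000 UMIs drawn from each cell, Sp9 was found in 63.9% of early (57.3 to 70.1%) and 65.1% of late NB-like cells (62.2 to 67.9%), so its peak depended on the depth drawn. As a background, 0.6 to 2.2% of endothelial-like cells held a UMI of a given member at 1000 UMIs. The qNSC-like shares of Dlx5 (1.0%), Sp9 (1.7%), Gad1 (1.7%) and Gad2 (1.4%) at 1000 UMIs lay within that range, and Dlx6 was found in 0 of 292 cells (exact upper bound 1.26%). The background differed between classes, as mural-like cells held Dlx1 in 5.5% (2.6 to 10.2%), Sp8 in 3.1% (1.0 to 7.0%) and Dlx2 in 1.8% of cells at 1000 UMIs, and Dlx5 and Gad1 in none. Without thinning, Dlx1 was found in 8.2%, 82.7%, 88.9%, 99.1% and 94.1% of the cells of the 5 stages, Gad1 in 5.1%, 27.9%, 47.6%, 65.1% and 59.4%, and Dlx1 in 3.3% of endothelial-like cells.

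**Figure D4:**
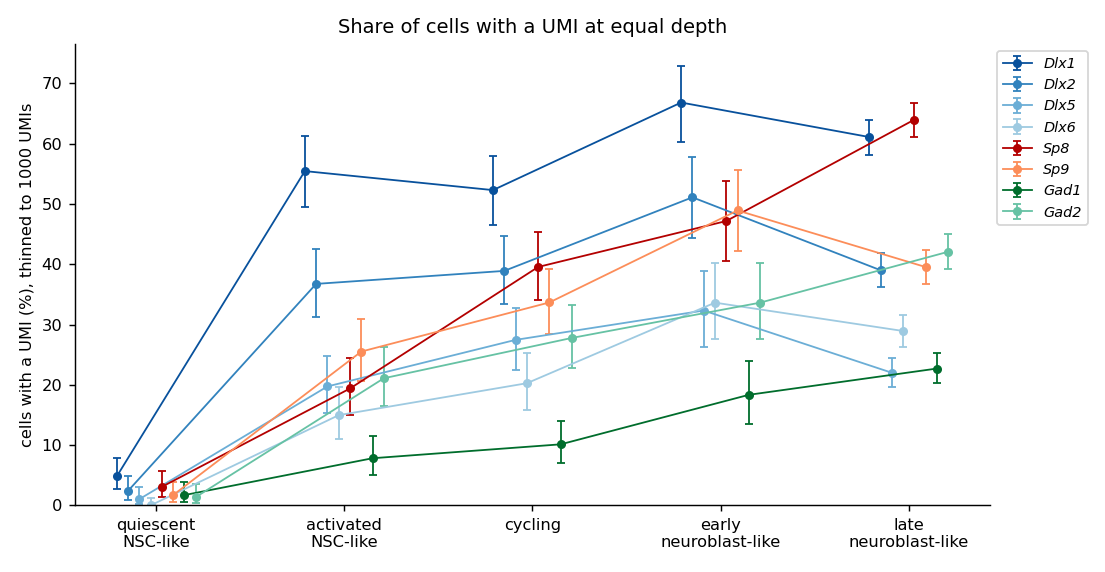
Share of cells with at least 1 UMI of each gene (percent of cells, after thinning every cell to 1000 UMIs) in the 5 stages, with exact binomial 95% intervals. Dlx1 reaches 55.4% in aNSC-like cells whereas Gad1 stands at 7.8% there and at 22.7% in late NB-like cells.

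Nearly every NB-like cell held a Dlx UMI, so the joint detection of Dlx and Gad UMIs there follows the Gad share and does not show a link between both. Among the 1141 late NB-like cells, 1134 had a UMI of a Dlx gene and 1042 a UMI of a Gad gene, 1038 had both, 4 had Gad without Dlx and 96 had Dlx without Gad. All 229 early NB-like cells had a Dlx UMI and 208 also had a Gad UMI. Of the 294 aNSC-like cells, 187 had both, 66 had Dlx without Gad and 1 had Gad without Dlx. Of the 294 qNSC-like cells, 27 had a Gad UMI, and 12 of these had no Dlx UMI (6 of 7 at 1000 UMIs). At equal depth, cells with both made up 22.4% of aNSC-like, 30.7% of cycling, 39.3% of early and 47.7% of late NB-like cells. UMIs of all 8 genes were found in 38 aNSC-like, 86 cycling, 61 early and 198 late NB-like cells without thinning. The share of cells with Sp8 but not Sp9 at 1000 UMIs was 13.6% in aNSC-like and 40.0% in late NB-like cells, and the share with Sp9 but not Sp8 was 19.7% and 15.5%. Lack of a UMI at this depth does not show that a cell lacks the RNA.

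A cluster of 71 cells led by Neurod1, a bHLH factor of glutamatergic neurons, stood apart from the other Dcx-bearing cells in all 8 genes. It held Dcx at 698 CPM, Eomes at 493 CPM and Tbr1 at 205 CPM. The 8 genes summed to 128 CPM in it, against 4780 CPM in early NB-like cells, a ratio of 37.4 in favour of the latter (28.8 to 49.6). Its counts were 16 UMIs of Dlx1, 17 of Gad2, 12 of Sp8, 4 of Dlx2, 2 each of Dlx5, Sp9 and Gad1, and 1 of Dlx6. All 8 genes were at least 2-fold lower than in early NB-like cells, where 7.37% of 8225 genes tested were. Of the 71 cells, 50 had no UMI of the 8 genes, and 2 cells held 41.1% of them. Over all cells the ratio of the sum to that of endothelial-like cells was 0.802 (0.585 to 1.08). Without the cells that held 10 or more UMIs of the 8 genes in either class, a trimming chosen after seeing the data, the sums were 78.9 and 47.7 CPM, a ratio of 1.66 (1.05 to 2.58). Gad2 was higher than in endothelial-like cells both over all cells, at a ratio of 2.45 (1.204 to 4.92), and after trimming, at 3.81 (1.74 to 8.52). Over all cells it was at 38.8 CPM in this cluster. It was near that level in cluster 11 (38.8, oligodendrocyte-like), mural-like (32.6, 18.3 to 53.8) and microglia-like cells (30.1, 9.77 to 70.2). In ependymal-like and fibroblast-like cells it was at 2.65 and 2.56 CPM. Whether Gad2 stood above the background of these classes was not tested. After trimming the ratio was 4.08 for Dlx1 (1.11 to 16.3) and 4.37 for Sp8 (1.04 to 21.04), on 7 and 6 UMIs, and the intervals of the other 5 genes included 1.

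In the same cluster 11 of 12 tested genes of the glutamatergic lineage were at least 2-fold higher than in early NB-like cells, where 9.26% of all genes were. Neurod1 was at 762 CPM against 0 UMIs (at least 315-fold), the bHLH factor Bhlhe22 at 224 CPM against 0 UMIs (at least 92.5-fold) and the T-box factor Eomes at 493 against 1.61 CPM (2 UMIs, 306-fold, 83.6 to 2541). The floor for a count of 0 was 3 UMIs over the class. Pax6, which acts in both lineages, was the exception, at 103 against 191 CPM. The vesicular GABA transporter gene Slc32a1 was at 2.28 CPM (1 UMI), against 103 CPM in early NB-like cells. This list also set the cluster apart by name, so its contrast describes the rule and is no finding, whereas the 8 genes were used neither to build nor to name any cluster.

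**Figure D5:**
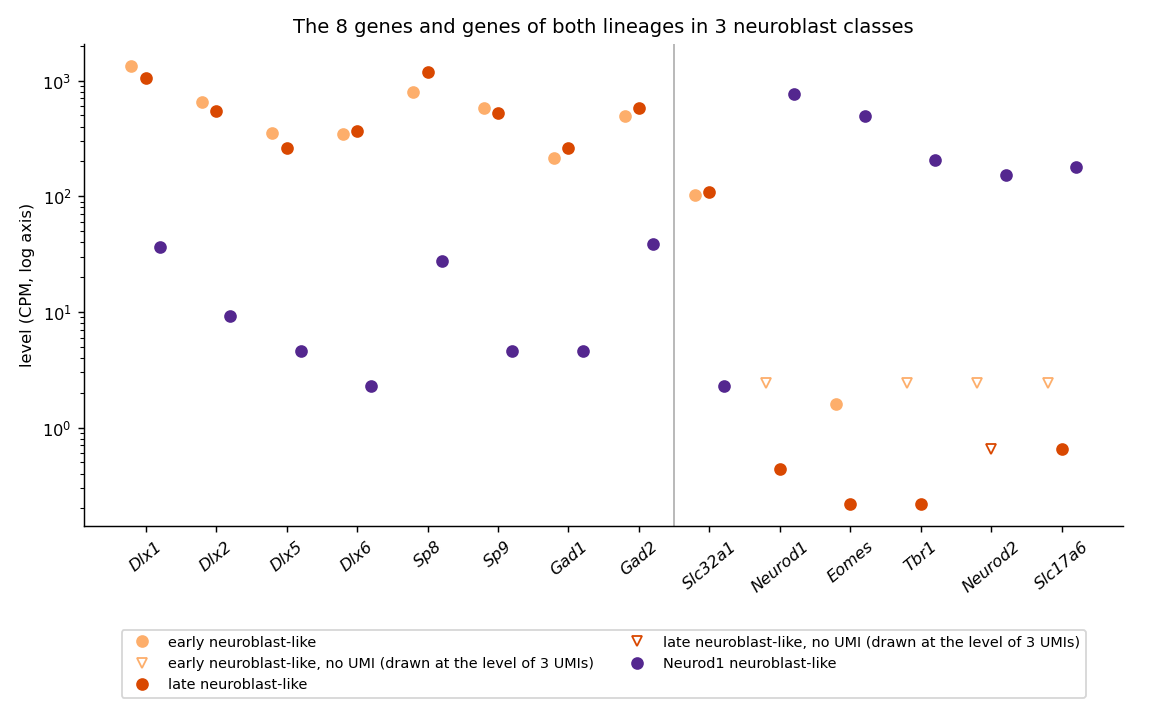
Levels (CPM, log axis) of the 8 genes, left of the vertical line, in the Neurod1 cluster and in early and late NB-like cells. Right of the line stand the GABA transporter gene Slc32a1 and the glutamatergic lineage genes Neurod1, Eomes, Tbr1, Neurod2 and Slc17a6. Open triangles mark genes with no UMI, drawn at the level of 3 UMIs. The 8 genes lie between 2.28 and 38.8 CPM in the Neurod1 cluster and between 212 and 1339 CPM in early NB-like cells.

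A further NB-like cluster of 138 shallow cells (median 866 UMIs, 13.0% mitochondrial counts against 3.70% in late NB-like cells, Meg3 at 6498 CPM) was kept apart from the stages. Its sum over the 8 genes was 0.927 times that of late NB-like cells (0.854 to 1.01). Dlx6 was 3.11 times higher (2.62 to 3.66) and Gad1 2.76 times (2.22 to 3.39), while Dlx2 (0.444), Dlx5 (0.387), Sp8 (0.482), Sp9 (0.528) and Dlx1 (0.753) were lower and Gad2 was alike (1.03). Dlx6os1, which overlaps all of Dlx6 on the other strand, was at 2433 CPM there and at 1534 CPM in late NB-like cells. Dlx6 made up 91.7% of the Dlx5 and Dlx6 UMIs (86.5 to 95.4%) and Gad1 54.4% of the Gad UMIs (46.9 to 61.9%). The part of cell quality or of reads from the other strand in these values was not tested.

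A list of 10 genes held 7 that load, take up or break down GABA and 3 of amino acid supply, namely the glutamine transporter gene Slc38a1, the glutamine synthetase gene Glul and Phgdh, of serine synthesis. Of the 10, 8 could be tested between early NB-like and qNSC-like cells. Only Slc32a1, which loads GABA into vesicles, was called higher, at 103 against 3.31 CPM (31.2-fold, 11.9 to 116), and 6 were called lower, where 17.2% of all genes were higher and 23.2% lower. The 3 supply genes were among those 6, while the GABA transaminase gene Abat was not called, at a ratio of 0.655 (0.491 to 0.871). The glial GABA transporter Slc6a11 was at 8.06 against 275 CPM, Glul at 87.1 against 1078 CPM, and Phgdh at 18.5 against 644 CPM. The median ratio of the 8 genes, supply genes included, was 0.219, against 1.07 over all genes tested. The 10 astrocyte markers moved with these genes, at 8071 CPM in sum in qNSC-like and 177 CPM in early NB-like cells. Cluster 1, with those markers at 17446 CPM, held Glul at 2532, Slc6a11 at 532 and Phgdh at 396 CPM. The part of astrocyte-like RNA in the qNSC-like levels was not tested. From early to late NB-like cells none was called higher and 2, Slc6a11 and Phgdh, lower (5.95% and 3.75% of all genes), and the Slc32a1 ratio was 1.06 (0.868 to 1.29). The Slc6a11 ratio was 0.486 on 18 against 10 UMIs, with an interval that included 1 (0.213 to 1.18). The Phgdh ratio was 0.235 (0.122 to 0.447).

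Of the 14 GABA receptor subunit genes, 7 could be tested between early NB-like and qNSC-like cells, of which 2 were called higher and 4 lower (17.2% and 23.2% of all genes). Gabrb1 was at 1.61 against 200 CPM and Gabrg1 at 0.806 against 57.9 CPM, while Gabra2 and Gabrg3 had no UMI in early NB-like cells against 23.2 and 26.5 CPM (at least 9.57- and 10.9-fold lower, with the same floor). From early to late NB-like cells 2 of 6 were called higher (5.95% of all genes), among them Gabra2 with 27 UMIs against 0 (at least 2.43-fold).

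Among ventral forebrain and interneuron fate factors, 24 were tested between early NB-like and qNSC-like cells, of which 9 were called higher and 5 lower (17.2% and 23.2% of all genes), with a median ratio of 1.81. The homeobox factor Six3 was at 6.45 against 106 CPM, and Nkx6-2 had no UMI against 28.1 CPM (at least 11.6-fold lower). Between early and late NB-like cells 8 of 24 were called higher and 3 lower (5.95% and 3.75% of all genes), with a median ratio of 1.27. Pbx3 was at 65.3 CPM in early and 619 CPM in late NB-like cells (9.48-fold, 7.60 to 11.97) and Six3 at 6.45 and 33.1 CPM (5.13-fold). Foxp2 (7.48-fold) and Tshz1 (4.05-fold), both used by subsets of olfactory interneurons, were also higher in late cells. Among the lower genes were Gsx2, at a ratio of 0.12, and Nr2f2, at 0.40. For comparison, the late over early ratios of the 8 genes lay between 0.741 and 1.49. Foxp2, Tshz1, Gsx2 and Nr2f2 were picked after their values had been seen.

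Of 14 genes that mark interneuron subtypes, 5 had at least 20 UMIs over the 5 stages. Calb2, the calcium-binding protein calretinin, was at 30.6 CPM in early NB-like and 1.65 CPM (2 UMIs) in qNSC-like cells, and at 30.7 CPM in late NB-like cells. It was far higher in the Neurod1 cluster, at 657 CPM. The serotonin receptor gene Htr3a was at 31.4 against 4.14 CPM, a ratio of 7.60 (3.00 to 24.7). Npy, a neuropeptide, was at 31.4 CPM in early and 2.83 CPM in late NB-like cells, a ratio of 0.09 (0.044 to 0.172), and Penk had no UMI in early NB-like cells against 19.8 CPM in qNSC-like cells. Sst had 0 UMIs, Th 3 and Pvalb 6 over all 5 stages.

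Dlx6os1, which is transcribed across Dlx6, had the profile most like the summed Dlx genes. It was at 72.0 CPM in qNSC-like, 587 in aNSC-like, 673 in cycling, 1488 in early and 1534 in late NB-like cells. Over 18 classes and among 11901 genes with at least 100 UMIs, Pearson's r of log2(CPM + 10) with the summed Dlx genes was 0.98 for Dlx6os1, 0.97 for Tiam2 and 0.96 each for Slc32a1, Gm14204 and Cdca7. The 5 genes most like the summed Sp genes were the same, with r between 0.95 and 0.98. Those most like the summed Gad genes were Dlx6os1 (0.98), Nrxn3 (0.96), Bcl11a, Bcl11b and Tiam2 (0.95 each). Among the 8 genes, r over the 28 pairs ran from 0.84 (Dlx2 and Gad1) to 0.99 (Dlx1 and Dlx2). The classes share 1 library and differ in depth, and these values describe likeness only. Dlx3 and Dlx4 had no UMI in the 5 stages.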

How the data were processed

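The authors processed the reads of 1 brain and 1 lung library with bcl2fastq 2.19.1.403, UMI-tools 1.0.0, STAR 2.7.1a and featureCounts 1.6.4 on build mm10, by the submitters' processing notes. The deposited values are raw UMI counts per gene and cell barcode. The annotation version, the strand setting and the rule that chose barcodes are not given in the sources used here. The 8 genes, the gene lists and the comparisons were chosen with earlier results of these data known.

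The filter of the study's methods was applied to the brain barcodes (over 200 genes, under 4000 genes, under 40% mitochondrial counts), and genes in at least 3 cells were used. The paper's own map shows 4640 brain cells, the number of deposited barcodes, whereas 4151 were kept here. Seurat 5.3.0 (R 4.3.3) scaled counts to 10000 per cell, and of 2000 variable genes 1956 remained once the 8 genes and the related lists had been left out. Louvain clustering on 20 principal components at resolution 0.8 gave 19 clusters, which were grouped into 18 classes. The study trimmed cell cycle genes, which were kept here because cycling cells are a stage. Naming thresholds, and the rule that the NB-like cluster lowest in Meg3 is early, were set after seeing the data. Scrublet (scanpy 1.11.5) called 44 of 4151 brain cells (1.06%) as doublets, below the expected rate of 0.06 that it was given, and they were kept in the main values.

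Counts were summed per class and divided by the class total to give CPM. Levels carry exact Poisson, ratios exact conditional binomial and shares Clopper-Pearson 95% intervals (scipy 1.17.1). UMIs are counted molecules, but the intervals cover counting error only. No test was made and no p-value is given, since cells are not replicates. A gene was called at a fold of 2 with at least 20 UMIs over both classes. All 8 genes are named, as are from each list up to 4 genes with at least 20 UMIs and the largest fold, and the 5 genes most like each summed profile. Some genes this rule names are not reported here. Alternatives changed the filters, doublets, resolution, cell cycle genes, scaling, depth of thinning and the low-count filter. The ratio step was checked on simulated data.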

Additional observations from a re-analysis of the deposited data

How the results depend on the processing

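No paired analysis was possible because each tissue was 1 library and no comparison was made between samples. Of 57 alternative values of the 6 summed ratios none changed direction, 24 stayed within the counting interval of the main value and 33 moved out of it. The size of the early NB-like over qNSC-like ratio was the value that moved most. In the order Dlx, Sp and Gad it was 27.2, 20.6 and 25.5 with no upper limit on genes per cell, 50.3, 44.3 and 57.2 with less than 10% mitochondrial counts, 82.6, 48.2 and 33.5 without cells called by Scrublet, 28.0, 23.8 and 28.7 at resolution 1.2, and 48.5, 40.9 and 48.4 without cell cycle genes. As a mean of per-cell CPM it was 26.0 for Dlx and 18.01 for Sp. Chosen after seeing the data, leaving out qNSC-like cells with a Dcx UMI gave 86.5, 38.6 and 49.6, leaving out those with 10 or more UMIs of the 8 genes gave 120.2, 48.3 and 39.1, and subtracting the endothelial-like level gave 29.1, 26.4 and 46.4. The last 3 alternatives lower the qNSC-like level by construction, and for the others the cause was not tested.

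The late over early ratio was 0.856 for Dlx, 1.43 for Sp and 1.41 for Gad with no upper limit on genes, 1.10 for Sp and 1.04 for Gad with less than 10% mitochondrial counts, and 1.10 for Sp and 1.09 for Gad without cell cycle genes. The early class held 333, 711 and 664 cells in these 3 settings against 229. At resolution 0.4 there was 1 NB-like cluster and so no early class. Cells with both Dlx and Gad UMIs made up 35.9% of aNSC-like, 49.7% of cycling, 65.2% of early and 75.6% of late NB-like cells at 2000 UMIs. Of 327 alternative values of single-gene ratios, 2 changed direction where the main interval excluded 1, both for Dlx1 in aNSC-like over late NB-like cells, at 1.04 with less than 10% mitochondrial counts and 1.04 at resolution 0.4. The same ratio of Dlx2 and the late over early ratio of Dlx6, whose main intervals include 1, also crossed 1, reaching 1.03 and 0.986. Of 376 alternative member levels, 201 stayed within the counting interval, and the genes most like each summed profile were the same 5 with no low-count filter. With 1 library per tissue, none of these values bears on the spread between mice.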

Other observations

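In the 121 oligodendrocyte progenitor-like cells Gad1 was at 32.1 CPM (15 UMIs, 17.9 to 52.9 CPM), which is 12.4% of its late NB-like level, while Gad2 had 1 UMI (2.14 CPM) and Dlx2 and Dlx5 none. In endothelial-like cells Gad1 was at 13.5 CPM (7.85 to 21.6), so that the intervals of both classes overlap. At 1000 UMIs per cell Gad1 was found in 1 of 104 oligodendrocyte progenitor-like cells (0.962%) and in 0.943% of endothelial-like cells, taken as the background. The shares were less alike at greater depth. With 2000 UMIs drawn, Gad1 was found in 5 of 80 oligodendrocyte progenitor-like cells (6.25%) and in 2.75% of endothelial-like cells, with overlapping intervals. Without thinning it was found in 13 of 121 (10.7%) and in 4.26%. Whether Gad1 stood above the background in oligodendrocyte progenitor-like cells was not tested.

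The lung library held 59 UMIs of the 8 genes in 54 of 5608 kept cells, 1.86 CPM in sum (1.41 to 2.39). They were 19 of Dlx1, 10 of Dlx2, 18 of Dlx5 and 12 of Gad1. Dlx6, Sp8, Sp9 and Gad2 had none, where 3 UMIs would be 0.0943 CPM.

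The stretch of chromosome 2 from Gad1 to Sp9 (chr2:70553072-73284706) holds 55 annotated genes, of which 31 had counts and 17 could be tested between early NB-like and qNSC-like cells. Of the 13 tested genes that are not members, 5 were at least 2-fold higher and 2 lower, with a median ratio of 1.91 (17.2% and 23.2% of all genes, median 1.07). Cdca7 alone exceeded 10-fold, at 598 against 46.3 CPM (12.9-fold). All 4 members in the stretch, Gad1, Dlx1, Dlx2 and Sp9, did so.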
